A study of Homo sapiens with 4 samples.

Results

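Receptor tyrosine kinases pass growth signals from outside the cell to the MAPK and PI3K-AKT pathways, and melanoma cells that raise them can go on signalling while BRAF and MEK are inhibited. Here 10 genes of such bypass signalling, chosen by name, were followed through 4 single-cell RNA-seq libraries of the melanoma line A375. They are *AXL*, *TYRO3*, *MET*, *PDGFRA*, *PDGFRB*, *FGFR1*, *IGF1R* and *KIT*, which encode receptor tyrosine kinases, *NGFR*, which encodes the p75 neurotrophin receptor and has no kinase domain, and *GAS6*, which encodes a ligand of AXL and TYRO3. All 10 genes were listed in all 4 count tables, among 32991 genes that were. The tables of S and RV shared 1 gene list and those of RVC and RVT another, 703 genes being listed only in the first pair and 547 only in the second, and whether this touches the ratios between the pairs was not tested. A375 is an established human line with the *BRAF* V600E change, and every library came from it. Sensitive cells (S) had no drug. RV cells had been made resistant to the BRAF inhibitor vemurafenib, RVC cells to vemurafenib with the MEK inhibitor cobimetinib, and RVT cells to vemurafenib with the MEK inhibitor trametinib. The resistant cultures were on drug for 10 to 14 days at concentrations below the IC50, and the drugs were taken off 24 h before capture.

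Each condition was 1 library, so that differences between conditions were not tested, and how far cultures of 1 condition vary is unknown. After filtering there were 6334 S, 4177 RV, 7628 RVC and 8446 RVT cells, with 58519152, 52461572, 32974745 and 25390117 UMIs (unique molecular identifiers, counted transcript molecules). The median cell had 8799.5 UMIs in S and 11553 in RV, but only 3958 in RVC and 2864 in RVT. Levels are given as counts per 1000000 UMIs summed over all cells of a library (CPM), and the range after a value is its exact 95% interval (Poisson for CPM, Clopper-Pearson for shares of cells, conditional binomial for ratios), which covers counting error only. Intervals of CPM and of ratios take UMIs as independent. They are too narrow where UMIs gather in some cells, also when cells of 1 library are split.

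RVC and RVT stood apart from S and RV, and from each other. No gene with at least 10 CPM in S or RV had 3 UMIs or fewer in the other of these 2 libraries, whereas 19 genes with at least 10 CPM in S had so few in RVC and 15 in RVT. Between the double-resistant libraries, 18 genes with at least 10 CPM in RVT had so few in RVC, and 8 the other way round. The log2 ratio to S was also lower for genes of higher GC content in the last 500 bases of the transcript in RVC (Spearman correlation across 6506 genes -0.35) and RVT (-0.41), but not in RV (0.0085), and RVT over RVC gave -0.17. Differences of RVC and RVT from S and RV, and from each other, cannot be told apart from these differences between libraries. Of 8 melanocyte markers, *MLANA*, *TYR* and *DCT* had at most 2 UMIs in any library and *PMEL* at most 24. *TYRP1* had 156 UMIs in RVC and 44 in RVT, against 4 in S and 1 in RV. *MITF*, the gene of the melanocyte master regulator, had 41.95 CPM in RVT and 20.01 in RV, against 9.78 in S and 8.13 in RVC. *S100B* had 32.8 CPM in S and 6.96 in RV but no UMI in RVC and 6 in RVT, and *SOX10*, a neural crest transcription factor gene, had 86.5 CPM for S, 39.9 for RV, 19.7 for RVT and no UMI in RVC. Between 36 and 103 cell barcodes were shared by each pair of libraries.

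In the skin, these receptors belong to separate signalling systems. AXL and TYRO3 bind GAS6 and protein S (*PROS1*), MET binds hepatocyte growth factor (*HGF*), and the PDGF receptors bind dimers of the PDGF chains. FGFR1 binds several fibroblast growth factors and IGF1R binds insulin-like growth factors. KIT and its ligand guide the development of melanocytes, and NGFR marks neural crest cells. High AXL and NGFR are known features of melanoma cells that have lost pigment cell traits.

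RefSeq promoters on GRCh38.p14 were at hand for 8 of the 10 genes, those of *FGFR1* and *NGFR* not being used here. The stretches before the starts of *AXL*, *PDGFRA* and *PDGFRB* are shown because *AXL* gave the most UMIs of the 10 genes, and so the narrowest intervals, and the PDGF receptors were higher in both double-resistant libraries. The first *AXL* stretch and that of *PDGFRB* stop where the first annotated exon begins, and the other 2 are whole windows of 250 bases that lie within the gene, before a later start. Capitals mark matches to GGAATG, the core of the TEAD motif, or to the E-box CANNTG on either strand. The stretches are given 5′ to 3′, for *AXL* at chr19:41218973-41219202 and at chr19:41226505-41226754, both on the forward strand, for the second start of *PDGFRA* at chr4:54233710-54233959 on the forward strand, and for *PDGFRB* at chr5:150155873-150156095 on the reverse strand.
AXL, first start: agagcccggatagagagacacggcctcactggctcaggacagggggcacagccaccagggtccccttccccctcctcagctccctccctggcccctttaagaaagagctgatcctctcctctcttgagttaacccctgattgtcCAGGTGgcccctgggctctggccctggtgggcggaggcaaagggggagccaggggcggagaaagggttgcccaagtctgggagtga
AXL, second start: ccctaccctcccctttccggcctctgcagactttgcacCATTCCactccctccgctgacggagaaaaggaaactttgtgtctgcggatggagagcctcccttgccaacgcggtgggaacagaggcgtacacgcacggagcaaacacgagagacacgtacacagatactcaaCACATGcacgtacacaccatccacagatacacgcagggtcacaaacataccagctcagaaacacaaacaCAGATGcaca
PDGFRA, second start: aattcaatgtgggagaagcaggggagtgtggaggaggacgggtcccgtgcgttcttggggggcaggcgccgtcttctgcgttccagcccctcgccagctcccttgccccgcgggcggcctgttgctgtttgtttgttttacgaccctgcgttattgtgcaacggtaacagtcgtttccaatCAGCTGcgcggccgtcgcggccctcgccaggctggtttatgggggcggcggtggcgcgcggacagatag
PDGFRB: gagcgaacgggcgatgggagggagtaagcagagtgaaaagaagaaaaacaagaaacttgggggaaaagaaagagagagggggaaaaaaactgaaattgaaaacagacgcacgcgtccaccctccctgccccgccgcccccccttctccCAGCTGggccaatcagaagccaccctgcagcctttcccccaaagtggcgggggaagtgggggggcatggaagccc
The second *AXL* stretch holds 1 TEAD match, in its reverse form, and 2 E-boxes. The other 3 hold 1 E-box each. Over the full 250 bases before the start, a match to the AP-1 motif TGANTCA was found before 1 of the 2 starts of *TYRO3* and of *PDGFRA*, and none of the motifs was found before *MET*, *IGF1R* or *KIT*. For *PDGFRA* the AP-1 match lies before the first start, whose window also holds 2 E-boxes and is not shown above. No match overlapped another. Of all 35116 RefSeq windows of this length, 6.57% hold the AP-1 motif, 11.9% the TEAD motif and 61.8% an E-box. A match is a description of the letters, and binding was not measured.

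The 10 genes did not move together. *NGFR* was at least 2-fold higher in RV than in S, *PDGFRA*, *PDGFRB* and *FGFR1* were at least 2-fold higher in RVC, and *PDGFRA* and *PDGFRB* in RVT. *AXL*, *MET*, *IGF1R* and *TYRO3* stayed under 2-fold in all 4 comparisons. A gene was compared where it had at least 1 CPM in the higher library, and called at 2-fold. In RV over S, 1 of 8 genes compared was called higher and 0 lower, where of all 12395 genes compared 3.90% were called higher and 3.21% lower. In RVC over S, 3 of 9 were called higher and 2 lower, against 25.1% and 22.8% of all genes. In RVT over S, 2 of 9 were called higher and 1 lower, against 36.0% and 21.7%. In RVT over RVC, 1 of 8 was called higher and 2 lower, against 23.6% and 12.9%. With TMM factors the shares of all genes called higher and lower were 18.9% and 26.7% in RVC over S, 22.5% and 30.3% in RVT over S, and 14.9% and 18.2% in RVT over RVC. The median log2 ratio of the genes compared was 0.46 in RV over S, 0.15 in RVC over S, 0.77 in RVT over S and 0.36 in RVT over RVC, beside 0.02, 0.23, 0.46 and 0.31 over all genes compared. The 3 comparisons with S share that library. Some calls were of genes that reached 1 CPM only through the library in which they were high, so that the filter favoured a difference. Among the 10 genes they were *PDGFRA* (higher), *NGFR* and *GAS6* (lower) in RVC over S, *PDGFRA* (higher) and *NGFR* (lower) in RVT over S, and *GAS6* (higher) in RVT over RVC. Counts of this size, against such backgrounds, do not set the 10 genes apart as a group. Fewer expressing cells and less RNA per cell cannot be told apart in these sums.

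**Figure D1:**
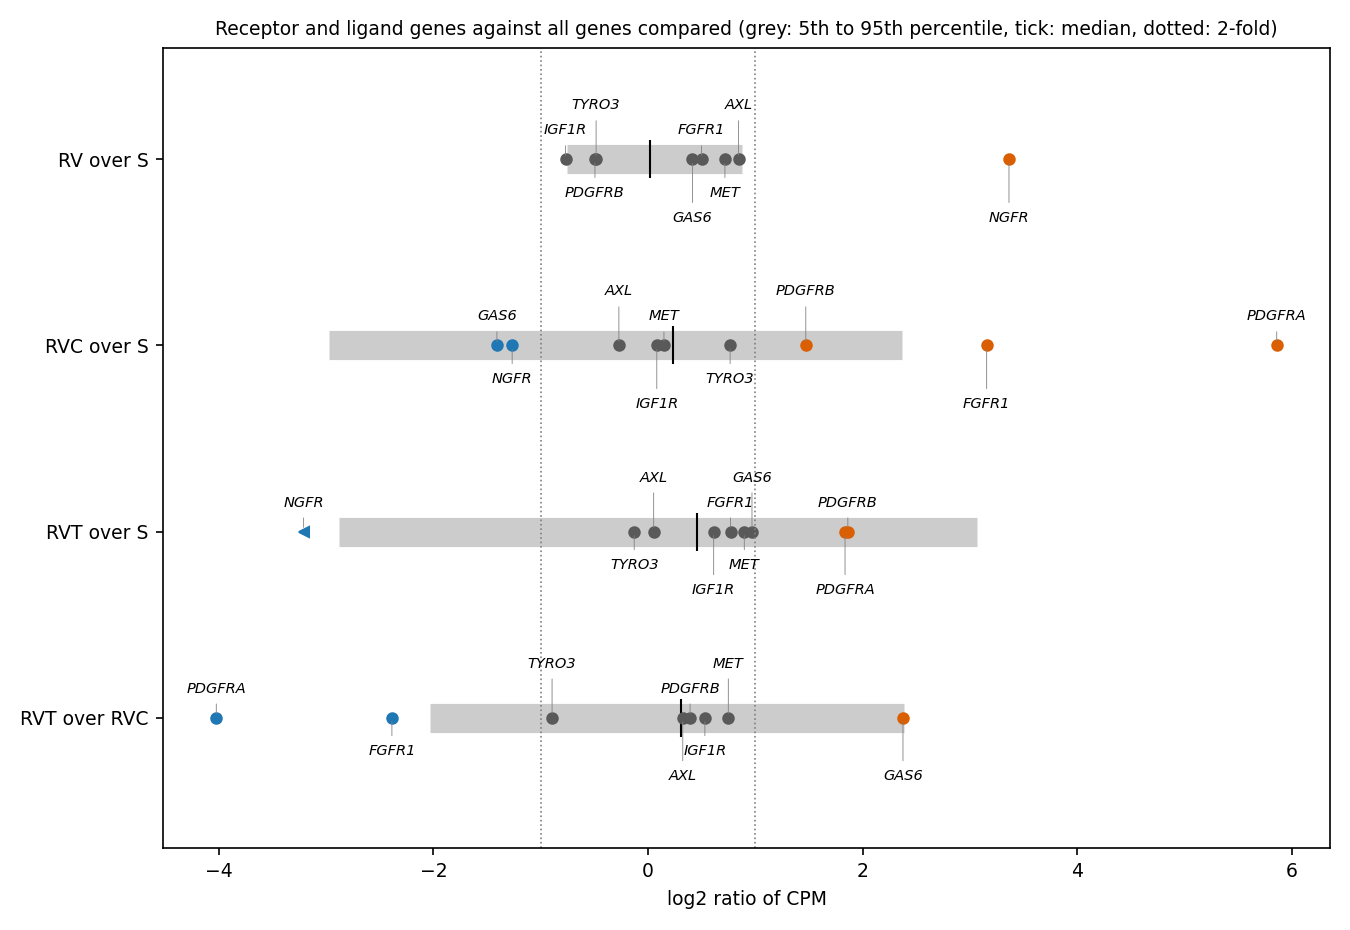
Log2 ratio of CPM (horizontal axis) for each of the 10 genes that was compared, in 4 comparisons of libraries. Points in orange were at least 2-fold higher, blue ones at least 2-fold lower and grey ones neither, the triangle is a bound for a gene with no UMI in RVT, the grey bands span the 5th to the 95th percentile of all genes compared and the ticks mark their median. Beyond the bands lie *NGFR* and *IGF1R* in RV over S, *PDGFRA* and *FGFR1* in RVC over S, *NGFR* in RVT over S, and *PDGFRA* and *FGFR1* in RVT over RVC.

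*AXL*, on chromosome 19 (41219203 to 41261766, GRCh38, as are all gene positions here), encodes a receptor tied to invasive, poorly pigmented melanoma cells. It had 94.7 CPM for S (92.2 to 97.3), 170.1 for RV (166.6 to 173.7), 78.5 for RVC (75.5 to 81.6) and 98.3 for RVT (94.4 to 102.2). RV was the highest, RVC the lowest, and the intervals of S and RVT overlapped. The ratio of RV over S was 1.80 (1.74 to 1.86), at the 94.7th percentile of all genes compared, so that *AXL* came close to the 2-fold line without passing it. The ratio for RVC over S was 0.829 (0.790 to 0.868). RVT over S was 1.04 (0.989 to 1.09), which turned to a log2 ratio of -0.46 with TMM factors, -0.41 after centring on GC content, -0.03 without ribosomal and mitochondrial genes in the library sizes and -0.02 with equal weight for each cell.

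*TYRO3*, on chromosome 15 (41557675 to 41583586), encodes the other AXL-family receptor here and had 4.48 CPM for S (3.95 to 5.05), 3.20 for RV (2.74 to 3.73), 7.61 for RVC (6.70 to 8.61) and 4.10 for RVT (3.35 to 4.96). RVC was above the other 3 libraries, whose intervals overlapped for RVT with S and with RV. The ratio to S in RVC was 1.70 (1.42 to 2.03). The ligand gene *GAS6*, on chromosome 13 (113820549 to 113864067) with an antisense gene, had 1.93 CPM for S (1.59 to 2.32), 2.57 for RV (2.16 to 3.05), 0.728 for RVC (0.466 to 1.08) and 3.78 for RVT (3.06 to 4.62). It was lowest in RVC, where it rested on 24 UMIs. RVC lay 2.65-fold below S (1.70 to 4.31), and RVT over RVC was 5.20-fold higher (3.29 to 8.499). Its transcript had a GC content of 59.2% over the final 500 bases, the highest of the 10 genes, and after centring on GC content the log2 ratio of RVC over S turned to 0.25 and that of RVT over S, 0.97, became 2.63. *PROS1*, the gene of the other ligand of these receptors, had 2.204 CPM in S and 2.65 in RV, against 7.34 in RVC and 16.1 in RVT. In CPM, *PROS1* was thus higher in both double-resistant libraries, 3.33-fold in RVC over S (2.68 to 4.16) and 7.31-fold in RVT over S (5.98 to 8.98). *GAS6* was low in RVC in CPM, but not against S after centring on GC content. How the *PROS1* ratios change with TMM factors or centring is not given here. The third receptor of the family, *MERTK*, had at most 7 UMIs in any library.

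**Figure D2:**
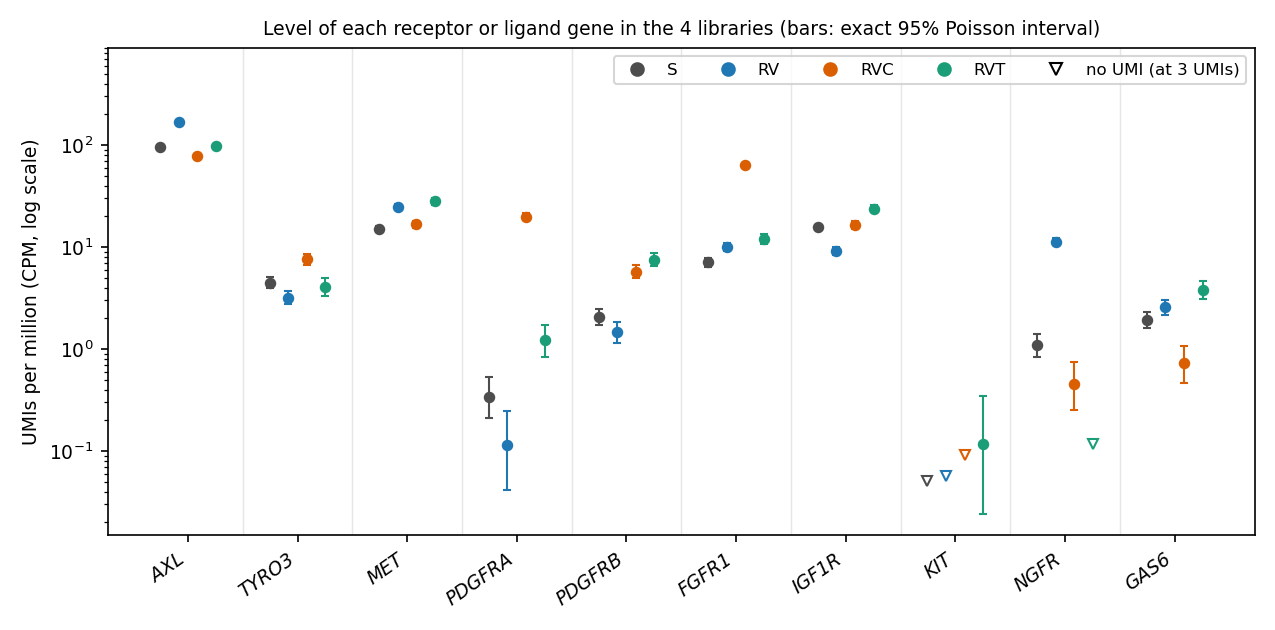
Level of the 10 genes in CPM (vertical axis, log scale) in the libraries S, RV, RVC and RVT. Points are the single libraries with exact 95% Poisson intervals and open triangles mark genes without a UMI, drawn at the level of 3 UMIs. *PDGFRA* and *FGFR1* stand out in RVC with 19.9 and 63.3 CPM, and *NGFR* in RV with 11.3 CPM.

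*PDGFRA*, on chromosome 4 (54229097 to 54298247), encodes a PDGF receptor that is typical of mesenchymal cells. RVC held 655 UMIs of it, S only 20, RV 6 and RVT 31. In the order S, RV, RVC and RVT these were 0.342 CPM (0.209 to 0.528), 0.114 (0.0420 to 0.249), 19.9 (18.4 to 21.4) and 1.22 (0.830 to 1.73). RVC was far above the other libraries and RVT was above S and RV. RVC over S was 58.1-fold (37.3 to 95.8), the largest ratio among the 10 genes and at the 99.3rd percentile of all genes compared. RVT over RVC was 16.3-fold lower (11.4 to 24.1). The 3.57-fold higher level of RVT over S (1.97 to 6.61) rested on 31 UMIs in RVT, and its log2 ratio of 1.84 came to 0.78 after centring on GC content, the GC content of its last 500 bases being the lowest of the 10 genes, 29.8%. *AC058822.1*, a gene on the same strand, overlaps *PDGFRA* in the annotation and was listed in all tables, so that reads in shared exons may have been counted for neither.

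Genes typical of fibroblasts were also higher in RVC and RVT than in S and RV for 4 of 6 markers (*COL3A1*, *DCN*, *LUM* and *COL1A1*). These 4 had at most 15 UMIs in S and reached 1 CPM only through RVC and RVT, so that their calls were set by the filter and the count is a description. *COL3A1* had no UMI in S and RV, 120.6 CPM in RVC and 7.48 in RVT, and the sum of 6 fibroblast markers was 0.889, 0.915, 161.2 and 35.8 CPM. *DCN* had 14.8 CPM in RVC and 2.64 in RVT, *LUM* 22.6 and 22.1, and *COL1A1* 2.91 and 3.51 (RVT over RVC 1.20, 0.892 to 1.62), so that RVC was above RVT for *COL3A1* and *DCN* but not for *LUM* and *COL1A1*. *COL1A2* was at 0 for S, RV and RVT, with 9 UMIs for RVC, and *PDPN* was at 0 for RVC and RVT, with 22 UMIs in S. The part of such genes in the level of *PDGFRA* and *FGFR1* was not tested across libraries. Within RVC, *PDGFRA* had 20.3 CPM (17.9 to 23.0) in the 2680 cells with a UMI of *COL3A1*, *DCN* or *LUM* and 19.6 CPM (17.7 to 21.6) in the 4948 cells without, a ratio of 1.04 (0.884 to 1.22). Median depth was 4228 UMIs in cells with such a UMI and 3810 in those without. At this depth a cell without a UMI may still express the gene, which can draw these ratios towards 1. A ratio near 1 therefore does not show that the genes are unrelated. The split pools markers that differed. Cells with *PDGFRA* and *COL3A1* were 1.27 times the number from the product of their shares, against 0.624 for *DCN* and 0.721 for *LUM*. In the same split the ratio was 1.41 (1.04 to 1.89) for *PDGFRB* and 1.32 (1.11 to 1.57) for *IGF1R*. It was 0.924 (0.852 to 1.0) for *AXL*, and the intervals of *TYRO3*, *MET*, *FGFR1* and *GAS6* held 1. The 5-gene immune sum was 35.4, 71.4, 152.6 and 65.7 CPM, nearly all of it from *CD68*, while *PTPRC*, *CD3E* and *MS4A1* had no UMI in any library. Sums of 4 endothelial markers ran from 1.34 to 2.31 CPM and of 4 epithelial markers from 0.158 to 9.28 CPM, *CDH1* being at 0 throughout.

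*PDGFRB*, on chromosome 5 (150113837 to 150155872), had 2.07 CPM for S (1.72 to 2.47), 1.47 for RV (1.16 to 1.83), 5.73 for RVC (4.94 to 6.61) and 7.52 for RVT (6.49 to 8.67). Both double-resistant libraries were above S and RV, while the intervals of S and RV overlapped, and so did those of RVC and RVT, whose ratio was 1.31 (1.07 to 1.61). RVC over S was 2.77-fold (2.195 to 3.51) and RVT over S 3.64-fold (2.88 to 4.61), the 86.0th and 83.6th percentiles of all genes compared. Unlike *PDGFRA*, *PDGFRB* therefore did not mark RVC.

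*PDGFA*, *PDGFC* and *PDGFD* differed between the double-resistant libraries. *PDGFB* had 18 UMIs in RVC and 17 in RVT and was highest in RV, with 148 UMIs, 3.51-fold over S (2.51 to 4.99). *PDGFA*, whose product binds mainly the alpha receptor, had 3.86 CPM in S and 3.82 in RVT, 8.16 in RV and 16.2 in RVC, with RVC the highest and a ratio of RVT over S of 0.989 (0.772 to 1.26). RVC was 4.19-fold above S (3.58 to 4.91). Where 4 values follow a gene, they are for S, RV, RVC and RVT in that order. *PDGFC* had 3.81, 6.14, 15.04 and 47.3 CPM, with RVT over S at 12.4-fold (10.7 to 14.4). *PDGFD* had 0.290, 0.572, 0.364 and 11.6 CPM, with RVT over S at 40.0-fold (24.6 to 69.6). RVT was thus the highest for *PDGFC* and *PDGFD* and RVC for *PDGFA*.

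*FGFR1*, on chromosome 8 (38400215 to 38468834), had 7.09 CPM for S (6.43 to 7.81), 10.0 for RV (9.19 to 10.9), 63.3 for RVC (60.6 to 66.0) and 12.1 for RVT (10.8 to 13.5). RVC was far above the rest, and RV and RVT overlapped slightly. RVC over S was 8.92-fold (8.03 to 9.94), at the 97.0th percentile, and RVT over RVC was 5.23-fold lower (4.64 to 5.92). RVT over S was 1.70-fold (1.47 to 1.98), with a log2 ratio of 0.77 that came to 0.01 after centring on GC content. The annotation places *AC087623.3* on the same strand within *FGFR1*.

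The FGF genes showed the same kind of split between the double-resistant libraries. *FGF5* had 31.6 CPM in RVC, against 0.205 in S, 0.782 in RV and 1.06 in RVT, and RVC over S was 154.2-fold (87.9 to 299.5). *FGF7* had 0.786, 1.14, 0.152 and 25.8 CPM, and RVT over S was 32.8-fold (24.3 to 45.3). *FGF2* had 3.01, 4.04, 8.31 and 30.9 CPM, and RVT over S was 10.3-fold (8.72 to 12.2). *FGF5* and *FGFR1* were thus highest in RVC, and *FGF2* and *FGF7* in RVT, where *FGFR1* was near its level in RV. FGF7 is known as a ligand of a splice form of FGFR2, and *FGFR2* had at most 6 UMIs in any library.

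**Figure D3:**
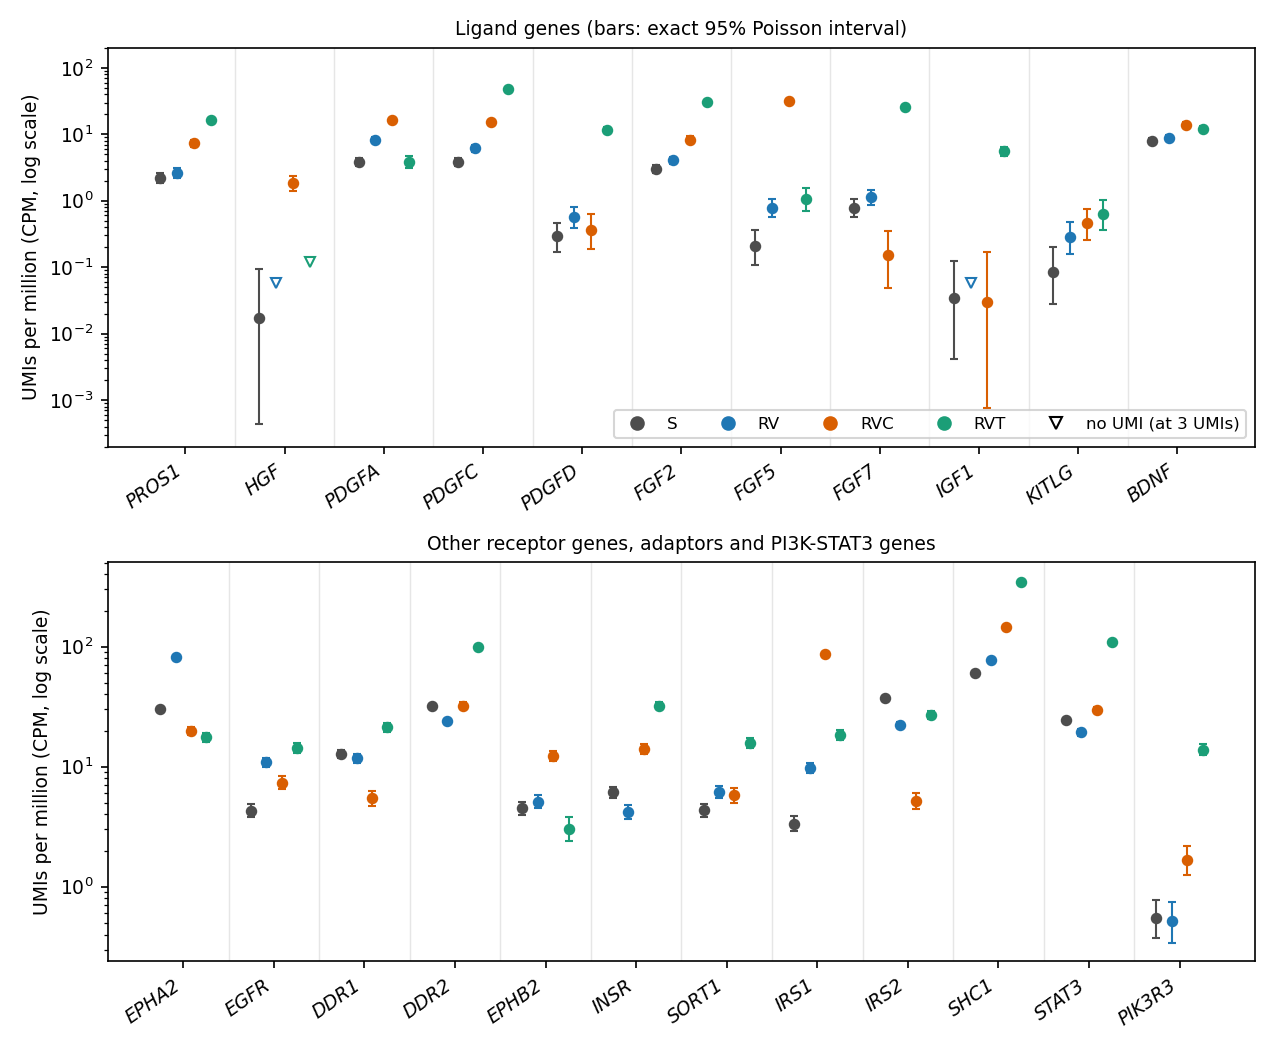
Levels in CPM (vertical axes, log scale) of ligand genes (upper panel) and of other receptor, adaptor and PI3K-STAT3 genes (lower panel) in S, RV, RVC and RVT, with exact 95% Poisson intervals and open triangles for genes without a UMI, drawn at the level of 3 UMIs. *FGF5* and *IRS1* are highest in RVC, at 31.6 and 86.9 CPM, and *FGF7*, *PDGFD* and *IGF1* in RVT, at 25.8, 11.6 and 5.51 CPM.

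*MET*, on chromosome 7 (116672390 to 116798386), had 15.1 CPM for S (14.1 to 16.1), 24.8 for RV (23.4 to 26.2), 16.7 for RVC (15.3 to 18.2) and 28.1 for RVT (26.1 to 30.2). In CPM, S and RVC overlapped at the lower level, and RV and RVT overlapped at the higher. TMM scaling divides by a larger factor in RVT (1.25) than in RV (0.902) or S (0.875). With TMM factors *MET* in RVT is therefore lower against both, and its ratio to S is smaller than in CPM. The grouping of RVT with RV thus rests on CPM and depends on the scaling. RV over S was 1.64-fold (1.51 to 1.79), at the 93.2nd percentile of all genes compared, and RVT over S was 1.86-fold (1.69 to 2.06), at the 61.3rd percentile. RVC over S had a log2 ratio of 0.15, which was -0.06 with TMM factors, -0.04 without ribosomal and mitochondrial genes in the library sizes and -0.31 after centring on GC content. Its ligand gene *HGF* had 1 UMI in S, none in RV and RVT, and 1.82 CPM in RVC.

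*IGF1R*, on chromosome 15 (98648539 to 98964530), was the lowest in RV. It had 15.6 CPM for S (14.6 to 16.6), 9.15 for RV (8.35 to 10.0), 16.5 for RVC (15.1 to 17.9) and 23.8 for RVT (22.0 to 25.8). S and RVC overlapped, and RVT was the highest. RV over S was 1.70-fold lower (1.52 to 1.91), at the 4.90th percentile of all genes compared. RVT over S was 1.53-fold (1.38 to 1.70) with a log2 ratio of 0.61, which turned to -0.39 after centring on GC content, and the log2 ratio of RVC over S, 0.08, turned to -0.13 with TMM factors, -0.11 without ribosomal and mitochondrial genes and -0.50 after centring.

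The related receptor gene *INSR*, of the insulin receptor, had 6.10, 4.21, 14.0 and 32.1 CPM in S, RV, RVC and RVT. It was lowest in RV, as *IGF1R* was, and RVT over S was 5.27-fold (4.65 to 5.98). *IGF1* had 2 UMIs in S, none in RV, 1 in RVC and 5.51 CPM in RVT (4.64 to 6.51). *IRS1*, the gene of the main adaptor of both receptors, had 3.35, 9.76, 86.9 and 18.4 CPM, highest in RVC at 25.9-fold over S (22.4 to 30.1). *IRS2*, the gene of the other insulin receptor substrate, had 37.0, 22.2, 5.16 and 26.9 CPM, and RVC over S was 7.18-fold lower (6.14 to 8.45). RVC was thus the highest library for *IRS1* and the lowest for *IRS2*.

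*NGFR*, on chromosome 17 (49495293 to 49515017), had 64 UMIs in S, 591 in RV, 15 in RVC and none in RVT. Its level was 1.09 CPM for S (0.842 to 1.40), 11.3 for RV (10.4 to 12.2), 0.455 for RVC (0.255 to 0.750) and 0 for RVT (0 to 0.145), where 3 UMIs, the count at which a zero was taken for ratios, would be 0.118 CPM. RV over S was 10.3-fold (7.95 to 13.6), at the 99.8th percentile, the largest ratio of the 10 genes in that comparison. RVC lay 2.40-fold below S (1.36 to 4.54), and RVT was 9.26-fold lower than S with RVT taken at 3 UMIs (counting interval from 7.31). The log2 ratio of RVT over S so taken, -3.21, was -2.60 in cells with at least 1000 genes, where RVT again had no UMI, and -4.97 with putative doublets kept, where RVT had 1 UMI and S 69. With equal weight for each cell *NGFR* was under 1 CPM in both S and the double-resistant libraries and so was not called there, its log2 ratios being -1.06 in RVC over S and -3.06 in RVT over S. The lower level in RVC did not reach 2-fold after centring on GC content, with a log2 ratio of -0.82. *BDNF*, the gene of a neurotrophin, had 7.90, 8.77, 13.8 and 12.0 CPM, under 2-fold in each comparison. *NTRK2*, of the kinase receptor for this neurotrophin, had 0.581, 0.476, 0 and 7.88 CPM, and RVT over S was 13.6-fold (9.39 to 20.1). *NTRK2*, which reached 1 CPM only through RVT, was high where *NGFR* had no UMI, but had none in RVC, where *NGFR* had 15.

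*KIT*, on chromosome 4 (54657918 to 54740715), had no UMI in S, RV and RVC and 3 UMIs in RVT, and it was compared nowhere. The exact upper limits of the share of cells with a UMI were 0.0582% in S, 0.0883% in RV and 0.0484% in RVC, and 3 cells of the total would be 0.0474%, 0.0718% and 0.0393%. Its ligand gene *KITLG* had between 5 and 16 UMIs per library.

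At the level of cells, the share of cells with an *AXL* UMI was 46.97% for S (45.7 to 48.2), 74.4% for RV (73.1 to 75.7), 25.6% for RVC (24.6 to 26.6) and 23.8% for RVT (22.9 to 24.7). Such shares depend on depth. After each cell was thinned at random to 1500 UMIs, which left out 397 RVC and 844 RVT cells, they were 21.5% in RV, against 11.7% in S, 13.4% in RVT and 10.3% in RVC. RV was then still the highest, and RVT was above S (12.6 to 14.2 against 10.9 to 12.5), the reverse of their order before thinning. At least 5 *AXL* UMIs were found in 161 S, 546 RV, 9 RVC and 4 RVT cells, and the richest cell had 28 in RV.

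For the receptors that marked RVC, the thinned shares were 9.22% of RVC cells for *FGFR1* (8.57 to 9.92) and 2.96% for *PDGFRA* (2.58 to 3.38), and from 1.12% to 1.89% and from 0.0479% to 0.184% in the other libraries. *NGFR* was seen in 1.24% of thinned RV cells (0.931 to 1.63), 10.4% before thinning, and in 0.0138% or less of RVC and RVT cells. *MET* had 2.04%, 3.52%, 2.35% and 4.13% in S, RV, RVC and RVT, and *IGF1R* had 2.43%, 1.44%, 2.63% and 3.47%, which kept the order of their CPM. The other 3 receptor genes were each seen in at most 1.23% of thinned cells of any library and *GAS6* in at most 0.658%. No cell type that lacks these genes is present in a line, so that the share given by free RNA in the droplets could not be measured.

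**Figure D4:**
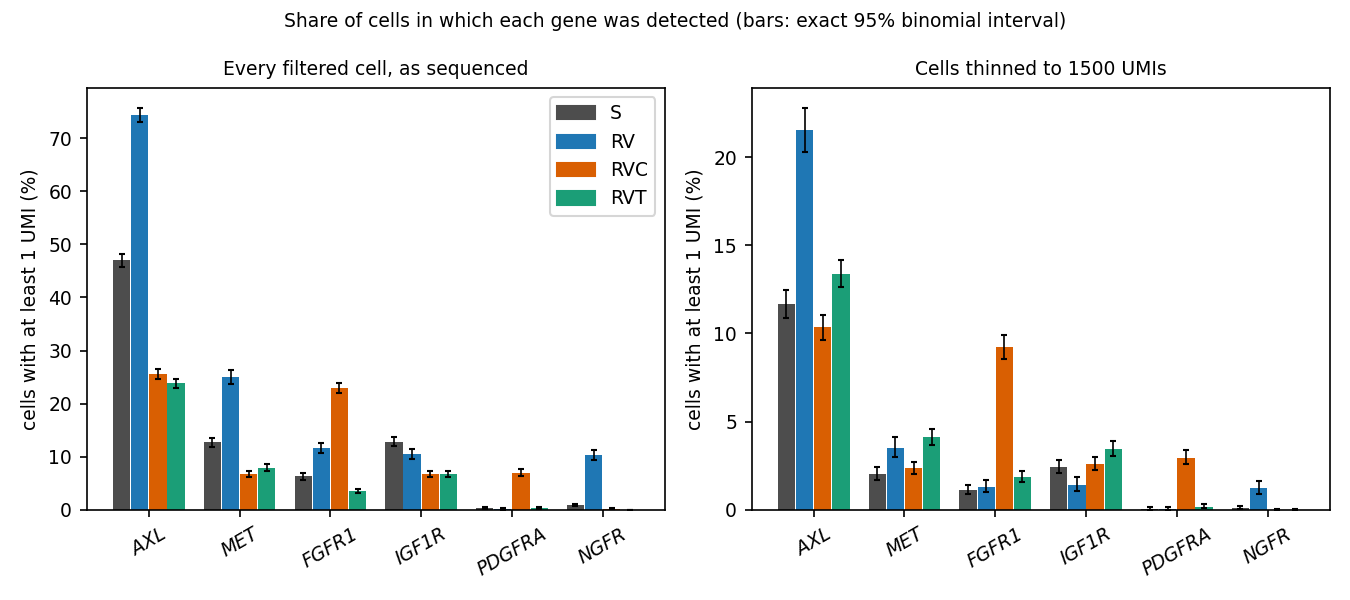
Share of cells with at least 1 UMI (vertical axes, %) for 6 genes in S, RV, RVC and RVT, in every filtered cell (left) and in cells thinned to 1500 UMIs (right, with its own scale). Bars are libraries, with exact 95% binomial intervals, and *AXL* is highest in RV in both panels, at 74.4% and 21.5%.

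Whether a gene was confined to some of the cells was looked at through the spread of the thinned counts, whose variance over mean is near 1 when cells do not differ. For *AXL* it was 1.18 in S and 1.17 in RV, and 1.02 in both RVC and RVT. For *PDGFRA* in RVC it was 1.20, 4 cells having at least 5 UMIs and the richest cell 10. For *FGFR1*, *MET*, *IGF1R*, *PDGFRB* and *TYRO3* it lay between 0.986 and 1.04 in each library where at least 20 cells had a UMI. Among these genes, *AXL* in S and RV and *PDGFRA* in RVC had the values farthest from 1. The value is drawn towards 1 where UMIs are few, and *PDGFRB* in S had 21 thinned cells with a UMI and *TYRO3* in RV 24. For such genes a value near 1 does not show an even spread. *NGFR* in RV had 0.988, but with only 52 thinned cells holding a UMI this value can show little. Before thinning, its 591 UMIs lay in 433 cells (1.36 per cell), 105 of which had at least 2 and 38 at least 3, with 8 in the richest. *FGFR1* in RV, with 526 UMIs in 487 cells (1.08 per cell), had 37 and 2 such cells and at most 3 UMIs. *NGFR* was thus spread less evenly over RV cells than *FGFR1*, a description of unthinned counts.

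For most pairs that could be judged, receptors were found together in cells about as often as the product of their shares gives. In thinned cells 5 pairs had at least 20 expected cells within 10 groups of cells by UMI count, and their ratios of observed to expected cells ran from 0.867 to 1.09. In RVC, *AXL* and *FGFR1* were both seen in 75 cells where 69.1 were expected (ratio 1.09, 0.853 to 1.36), and *AXL* and *PDGFRA* in 20 where 20.9 were expected (0.955, 0.583 to 1.48). In RV, *AXL* and *MET* were both seen in 30 cells where 31.4 were expected. Without thinning, 39 pairs had at least 20 expected cells, with ratios from 0.732 to 1.40 and a median of 1.03, and 37 of their intervals held 1. The 2 that did not were *FGFR1* with *IGF1R* in RV (76 cells against 54.5, 1.40, 1.10 to 1.75) and *PDGFRB* with *FGFR1* in RVC (66 against 50.2, 1.32, 1.02 to 1.67). In thinned RVC cells *PDGFRB* and *FGFR1*, with too few expected cells for a ratio, was seen in 19 cells against 6.64. Counts were too sparse to show a modest link. Exactly 2 of the 10 genes were seen in 1.04% of thinned S cells, 1.89% of RV, 2.95% of RVC and 2.01% of RVT cells, and 3 genes in at most 17 cells of a library.

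For pairs of a receptor with another gene, the partners were chosen after their values were seen. Ratios in thinned cells ran from 0.634 to 1.55 over 62 pairs, and 58 intervals held 1. Without thinning, 200 of 215 intervals held 1, 11 lay above it and 4 below. *AXL* and *EPHA2*, another receptor tyrosine kinase gene, were both seen in 46 S cells where 29.7 were expected (1.55, 1.13 to 2.07), and in 95 RV cells where 98.2 were expected (0.967, 0.783 to 1.18). Without thinning, the ratio of this pair was 1.24 in S (1.15 to 1.32) and 1.28 in RVT (1.08 to 1.51), while the intervals in RV (1.03, 0.983 to 1.08) and RVC (1.01, 0.869 to 1.16) held 1. The other 3 intervals that missed 1 were those of *AXL* with *MITF* in RV, *PDGFRA* with *SHC1* in RVC and *IGF1R* with the lysosomal gene *CD68* in RVC. *AXL* and *MITF* were both seen in 36 RV cells against 24.2 (1.49, 1.04 to 2.06), with an unthinned ratio of 1.07 (0.988 to 1.15). *PDGFRA* and *SHC1* were both seen in 64 RVC cells against 42.2 (1.52, 1.17 to 1.94), with 1.13 unthinned (0.999 to 1.27). *IGF1R* and *CD68* were both seen in 24 RVC cells against 37.9 (0.634, 0.406 to 0.943), with 0.989 unthinned (0.871 to 1.12). Without thinning the intervals of these 3 pairs held 1 in the libraries named. In S, the unthinned interval of *AXL* with *MITF* lay above 1 (316 cells against 272.1, 1.16, 1.04 to 1.3). In RVC, *FGFR1* was seen with *FGF5* in 26 cells against 30.4 (0.855, 0.559 to 1.25) and with *IRS1* in 87 against 80.1 (1.09, 0.870 to 1.34). Both intervals held 1. *PDGFRA* was seen with *COL3A1* in 40 RVC cells against 34.5 (1.16, 0.827 to 1.58), and without thinning in 197 against 154.6 (1.27, 1.10 to 1.47). With *DCN* it was seen, unthinned, in 17 cells against 27.2 (0.624, 0.363 to 0.999), and with *LUM* in 30 against 41.6 (0.721, 0.486 to 1.03), the latter interval holding 1.

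*AXL* was higher in dividing cells. In S, the 1823 cells with UMIs of at least 3 of 10 mitosis genes had 129.7 CPM (124.8 to 134.9) and the other 4511 cells 77.02 (74.3 to 79.8), a ratio of 1.68 (1.60 to 1.78). It was also above 1 elsewhere, at 1.53 in RVT (1.33 to 1.75), 1.48 in RV (1.42 to 1.55) and 1.17 in RVC (1.08 to 1.27). In RVC it came to 1.06 when cells were compared within 10 groups by UMI count, while it was 1.68, 1.56 and 1.5 in S, RV and RVT. *IGF1R* was lower in the dividing cells of S (0.806, 0.696 to 0.932) and RVT (0.565, 0.355 to 0.856), with 0.880 and 0.908 in RV and RVC, whose intervals held 1. *PDGFRB* was lower in the dividing cells of S (0.515, 0.318 to 0.807), while its intervals in RV (0.631, 0.382 to 1.02), RVC (0.874, 0.650 to 1.17) and RVT (0.707, 0.318 to 1.37) held 1. *MET* was higher in the dividing cells of S (1.24, 1.08 to 1.42) and RVT (1.46, 1.11 to 1.88), and its intervals in RV (1.11, 0.991 to 1.24) and RVC (1.12, 0.942 to 1.33) held 1. *NGFR* was higher in the dividing cells of RV (1.31, 1.11 to 1.55), with intervals that held 1 in S (0.966, 0.545 to 1.66) and RVC (0.614, 0.180 to 1.93). *TYRO3* was likewise higher in the dividing cells of RV (1.40, 1.02 to 1.93), and its intervals in S (1.05, 0.807 to 1.37), RVC (1.26, 0.974 to 1.63) and RVT (1.69, 0.816 to 3.17) held 1, as did those of *GAS6* in each library. *PDGFRA* in RVC was lower in dividing cells, 15.9 against 24.2 CPM (0.654, 0.558 to 0.766), and its ratio was 0.834 within 10 groups by UMI count. *FGFR1*, the other receptor gene that marked RVC, had 65.4 against 60.9 CPM there (1.07, 0.985 to 1.17), while its ratio in RVT was 1.90 (1.30 to 2.69) and those in S, 1.11, and RV, 0.864, had intervals that held 1. The share of cells so counted was 42.5% in both RV and RVC, 28.8% in S and 4.57% in RVT, and a deeper cell is more readily counted. The ratios of *IGF1R*, *PDGFRB*, *MET*, *NGFR*, *TYRO3*, *GAS6* and *FGFR1* are given without matching for depth. Median UMIs of dividing against other cells were 10410 and 8249 in S, 13140 and 10450 in RV, 5027 and 3266 in RVC, and 4158 and 2824 in RVT. Among the other cells alone *AXL* was again higher in RV, 138.3 CPM (133.9 to 142.8), than in S.

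**Figure D5:**
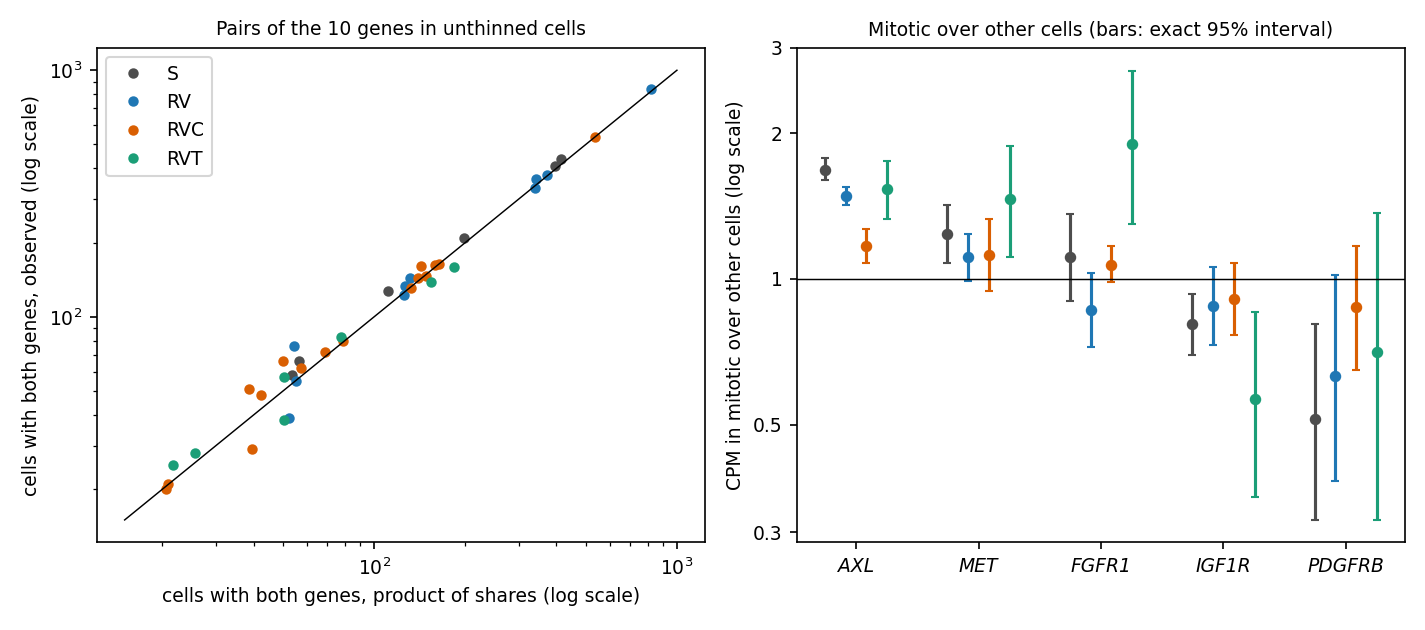
Left, cells of a library with both genes of a pair as observed (vertical axis, log scale) against the number from the product of their shares (horizontal axis, log scale), for 39 pairs with at least 20 expected cells, without thinning, the line marking equality. Right, ratio of CPM in cells with UMIs of at least 3 mitosis genes over the other cells (log scale) with exact 95% intervals, *AXL* lying above 1 in every library. These ratios were not matched for depth.

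S cells were also split by *SOX10*. In the 3119 S cells with a *SOX10* UMI *AXL* had 81.5 CPM (78.3 to 84.8), and in the 3215 without 108.2 (104.4 to 112.0), a ratio of 0.753 (0.714 to 0.795). *MET* (0.793, 0.693 to 0.908) and *NGFR* (0.301, 0.157 to 0.545, from 64 UMIs) were likewise lower in S cells with *SOX10*, and *IGF1R* was higher (1.24, 1.08 to 1.41). Median depth was 8952 UMIs with and 8605 without. In RV the ratio was 0.911 for *AXL* (0.871 to 0.952), and the intervals for *MET* and *NGFR* held 1, while *IGF1R* was again higher in cells with *SOX10* (1.26, 1.05 to 1.52). The cells of RV with a *NGFR* UMI had 186.6 CPM of *AXL* (176.3 to 197.5) and those without 167.8 (164.0 to 171.6), a ratio of 1.11 (1.05 to 1.18). Their median depth was 13670 UMIs against 11380, and the cells with both genes, 363 where 342.9 were expected within 10 groups by UMI count (1.06, 0.953 to 1.17), gave an interval that held 1.

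The genes around the receptors were taken as lists. Counts can include genes that reached 1 CPM only through the library in which they were high, which made up 25.9% of all genes called higher in RVT over S, 26.1% in RVC over S, 31.1% in RVT over RVC and 42.1% in RV over S. After the ligands, those called in some comparisons were *CSF1R*, *NTRK2* and *FGFR4*, then *GAB1* and *PIK3R3*, then *GRB14*, *LRIG1* and *GRB10*. Counts and medians of the lists are thus descriptions. How they change with TMM factors or centring on GC content is not given here. Of 17 ligand genes, 7 could be compared in RV over S, with 2 at least 2-fold higher (*PDGFA* and, only through RV, *PDGFB*) and 0 lower, where 3.90% and 3.21% of all genes were called. In RVC over S 6 of 7 were higher and 0 lower, against 25.1% and 22.8% of all genes, with a median log2 ratio of 1.98 beside 0.23 over all genes compared, and 2 of the 6, *HGF* and *FGF5*, were under 1 CPM in S. In RVT over S 7 of 9 were higher and 0 lower, against 36.0% and 21.7%, with a median of 3.36 beside 0.46, and 4 of the 7, *PDGFD*, *FGF5*, *FGF7* and *IGF1*, were under 1 CPM in S. In RVT over RVC 6 of 10 were higher (*PROS1*, *PDGFC*, *PDGFD*, *FGF2*, *FGF7*, *IGF1*) and 3 lower (*HGF*, *PDGFA*, *FGF5*), against 23.6% and 12.9%, with a median of 1.39 beside 0.31, *PDGFD*, *FGF7* and *IGF1* being under 1 CPM in RVC and *HGF* in RVT.

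Of 22 related receptor genes, 9 could be compared in each comparison. In RV over S, 2 were higher and 1 (*FGFR4*) lower, against 3.90% and 3.21% of all genes, with a median log2 ratio of 0.18 beside 0.02. *EPHA2* had 30.1, 81.8, 19.9 and 17.6 CPM in S, RV, RVC and RVT, with RV over S at 2.72-fold (2.57 to 2.88), and *EGFR* had 4.29, 10.9, 7.37 and 14.3, with RV over S at 2.54-fold (2.19 to 2.96). *EPHA2* and *EGFR* were thus the genes of this list called higher in RV. In RVT over S 5 were higher and 1 lower, against 36.0% and 21.7% of all genes, with a median of 1.65 beside 0.46. Among the 5 were *DDR2*, a collagen receptor gene, with 31.8, 23.8, 32.3 and 99.9 CPM, and *SORT1*, a partner of NGFR, with 15.7 CPM in RVT at 3.64-fold over S (3.10 to 4.28). In RVC over S 3 were higher and 2 lower, shares near the 25.1% and 22.8% of all genes, with a median of 0.42 beside 0.23, *DDR1*, of the other collagen receptor, being 2.35-fold lower (2.00 to 2.78) and *EPHB2* 2.72-fold higher (2.32 to 3.19). In RVT over RVC 5 were higher and 2 lower, against 23.6% and 12.9%, with a median of 1.20 beside 0.31.

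Of 21 adaptor and PI3K-AKT genes, 12 were higher and 0 lower in RVT over S, against 36.0% and 21.7% of all genes, with a median log2 ratio of 1.25 beside 0.46 over all genes compared. *SHC1*, which couples receptors to RAS, had 60.6, 77.6, 144.6 and 348.3 CPM and was 5.75-fold higher in RVT than in S (5.53 to 5.98). *STAT3* had 24.3, 19.3, 29.8 and 109.8 CPM, and *PIK3R3*, of a PI3K regulatory subunit, had 0.547, 0.515, 1.67 and 13.8. RVC over S had 6 higher and 1 lower of 21, where 25.1% of all genes were higher and 22.8% lower, and the median was 0.43 beside 0.23. RV over S had 1 higher (*IRS1*, 2.91-fold, 2.47 to 3.45) and 0 lower of 19, against 3.90% and 3.21%, with a median of -0.17 beside 0.02. The shares called higher in RVC and RV were thus near those of all genes. In RVT over RVC 9 were higher and 1 lower of 21, against 23.6% and 12.9%, with a median of 0.90 beside 0.31.

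Of 11 genes that dampen or shed receptors, 5 were higher in RVC over S, against 25.1% of all genes, and 6 of 10 in RVT over S, against 36.0%, with 1 lower in each, *GRB10*, against 22.8% and 21.7%. Their median log2 ratios were 0.91 and 1.16 beside 0.23 and 0.46. *ERRFI1*, whose product inhibits EGFR, had 95.8, 68.3, 215.7 and 80.3 CPM. *ADAM10*, of a protease that sheds receptors such as AXL and MET, had 12.4, 10.2, 19.5 and 58.9 CPM, 4.74-fold higher in RVT than in S (4.33 to 5.19). In RV over S 1 was higher and 2 lower of 11, against 3.90% and 3.21%, with a median of -0.39 beside 0.02. In RVT over RVC 3 were higher and 4 lower of 11, against 23.6% and 12.9%, with a median of 0.32 beside 0.31.

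Among 6506 genes whose mean level over the libraries reached 10 CPM, those whose levels over the libraries were most like those of a receptor gene were found by the root mean square distance of their centred log2 CPM. Nearest to *AXL* were *FAM49B* (0.051), *SOCS2* (0.083), *SNX7* (0.11), *CHMP2B* (0.13) and *SQLE* (0.14). Nearest to *MET* were *RBBP8* (0.044), *CCDC84*, *ABL2*, *NEK6* and *NR1H3*, and nearest to *IGF1R* were *RPS6KC1* (0.092), *GUCD1*, *HCG18*, *SLC16A1* and *DNAJC10*. For *FGFR1* the distances were larger, and its nearest genes were *ITGA2* (0.17), with 17.6, 31.9, 154.3 and 36.7 CPM, *CKS2* (0.19), *NCAPD2*, *CENPL* and *LINC02001* (0.28). Each distance rests on 4 values per gene.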

How the data were processed

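The series measured 3′ single-cell RNA in 4 libraries, 1 per condition. The authors deposited raw UMI counts per gene and cell barcode, made with bcl2fastq 2.20.0.422 and Cell Ranger on GRCh38 per the labels. The annotation is not given in the sources used here. The paper states that quality control took out dead and doublet cells, but whether this came before deposit is not given. The deposited counts held 6695 S, 4328 RV, 9266 RVC and 10427 RVT barcodes. For RVC and RVT these are the cell numbers that the paper lists before it describes quality control. For S and RV they are larger than the numbers it lists. Fewer than 500 genes were found in 0 S, 0 RV, 903 RVC and 1084 RVT barcodes, and more than 20% mitochondrial UMIs in 2, 1, 478 and 580. Cells with at least 500 genes and at most 20% mitochondrial UMIs were kept, and barcodes with the highest scrublet scores (scanpy 1.11.5) were removed at 0.8% per 1000 barcodes. Counts were summed per library and scaled to CPM (python 3.11.15, pandas 2.3.3, scipy 1.17.1, edgeR 4.0.16 for TMM factors). A gene with no UMI was taken at 3 UMIs. Scripts were tested on simulated data. With 1 library per condition no test was made.

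The genes, lists and tests were chosen with earlier results of these data known. List genes were named by a rule (at least 10 CPM in the higher library and 2-fold, at most 4 by size of ratio per list and comparison); *HGF*, *PDGFB*, *BDNF*, *NTRK2*, *KITLG*, *MERTK*, *FGFR2*, *FGFR4*, *GRB10* and any other list gene outside it, the partner genes for co-detection and the mitotic ratio within 10 groups of cells by UMIs were chosen after their values were seen. No column of an unmapped sample was used. The alternatives covered the cell filters, doublets, scaling, GC content, low values, fold threshold and thinning.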

Additional observations from a re-analysis of the deposited data

How the results depend on the processing

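No paired analysis was possible because each condition has 1 library. Of the counts of the 10 genes called, 41 of those higher and 40 of those lower under the alternatives stayed within 1.5 times the reported count, while 7 and 8 moved. Shares after a count are those of all genes compared. With TMM factors, 1 gene (*PDGFRB*) rather than 2 was called higher in RVT over S (22.5%), since *PDGFRA*, with a log2 ratio of 1.32, fell under 1 CPM. With equal weight of cells, 1 gene (*GAS6*) was lower in RVC over S (22.8%) and 0 in RVT over S (21.5%), *NGFR* falling under 1 CPM. After centring on GC content, 0 were lower in RVC over S (23.4%), and the 2 higher in RVT over S (22.8%) were *PDGFRB* and *GAS6*, in place of *PDGFRA*. With at least 10 CPM required, 0 were lower in RVC over S (24.4%), 0 higher and 0 lower in RVT over S (34.6% and 23.1%), and 0 higher in RVT over RVC (19.6%). With more than 3 UMIs required in place of 1 CPM, 1 (*PDGFRA*) was lower in RV over S (7.01%). At 1.5-fold, 3 were higher (9.45%) and 1 lower (7.44%) of 8 in RV over S, 6 of 9 higher in RVT over S (46.9%) and 2 of 8 higher in RVT over RVC (38.6%). At 4-fold, 0 were lower in RVC over S (11.1%) and 0 higher in RVT over S (14.3%). The log2 ratio of *GAS6* in RVC over S, -1.41, was 0.25 after centring on GC content, and the cause was not tested. Of the log2 ratios, 226 stayed within their counting interval, 45 moved beyond it and 1 was counted as reversed. Of the shares of cells with a UMI, 70 values moved beyond their interval on thinning to 1500 or 1000 UMIs and 10 did not. With TMM factors the median log2 ratio of all genes compared was -0.02 in RV over S, 8.7e-05 in RVC over S, -0.10 in RVT over S and -0.01 in RVT over RVC. Depth limits *KIT*, *NGFR* in RVC and RVT, *GAS6* in RVC and *PDGFRA* outside RVC, which rest on 31 UMIs or fewer, and most pairs of genes in thinned cells.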
